A study of Mus musculus with 11 samples.

Results

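The BAFF and APRIL receptor genes are Tnfrsf13b, Tnfrsf13c and Tnfrsf17, which encode TACI, the BAFF receptor and BCMA. They are 3 of 22208 protein-coding genes in GENCODE M1, an annotation of mm9. Every ChIP-seq peak whose position lay in one of the genes or within 20 kb of it was collected from the 4 lists per factor and day (group lists) and the 10 lists per library. Chromatin immunoprecipitation with sequencing (ChIP-seq) uses an antibody to pull down a protein with its DNA, and a peak is a place where that DNA exceeds an input control. The peaks near the 3 genes fell into 24 of 70542 regions, where a region joins peak positions of any library less than 200 bp apart.

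All groups were splenic B cells of B1-8i mice, in which a gene-targeted antibody recognises the hapten NP, on a 129 background. All were stimulated in culture with CD40L, the interleukins IL-2, IL-4 and IL-5, and NP-Ficoll at 0.01 ng per mL. Day 1 stands for activated cells that had not yet differentiated, and day 3 for cells after plasma cell differentiation. IRF4 was precipitated in 3 libraries of each day and PU.1 in 2 of each day, and age and sex of the mice are not given in the labels. Nothing in the labels ties a replicate to its own mouse or culture; p-values therefore describe the spread among libraries, which may be technical. No sorting of day 3 cells is described, so other cells than plasma cells may be included.

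BAFF and APRIL are cytokines of the TNF family that keep B cells and plasma cells alive. The BAFF receptor binds BAFF alone and sustains mature resting B cells through the alternative NF-kB pathway. TACI binds both cytokines and takes part in class switching and in responses to repetitive antigens. BCMA binds APRIL most tightly, appears late in B cell differentiation and supports plasma cells in the bone marrow. IRF4 rises on B cell activation and is needed for plasma cells. PU.1, a transcription factor of the Ets family present in B and myeloid lineages, can recruit IRF4 to a joint site.

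The sequences shown are those of 8 regions that carry differences between the genes. Each window holds 201 bases, 100 to either side of the region's centre, and was read from the mm9 plus strand, which comes from another mouse strain than these cells. Capitals mark matches, on either strand, to the Ets-IRF composite element (EICE, GGAANNGAAA), the interferon-stimulated response element (ISRE, GAAANNGAAA), the AP-1 site (TGACTCA), a PU.1 site (GAGGAAGT) or its inner part AGGAAG. The AP-1-IRF composite element (AICE) was searched too and had no match in the 24 regions. The PU.1 site always contains AGGAAG, and an EICE and an ISRE can overlap by sharing GAAA.

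The TACI windows are the region called in every library, the region 14.2 kb upstream with both factors, an upstream region with IRF4 alone and the intronic IRF4 region of day 1.
TACI 17.7 kb upstream (chr11:60922465-60922665): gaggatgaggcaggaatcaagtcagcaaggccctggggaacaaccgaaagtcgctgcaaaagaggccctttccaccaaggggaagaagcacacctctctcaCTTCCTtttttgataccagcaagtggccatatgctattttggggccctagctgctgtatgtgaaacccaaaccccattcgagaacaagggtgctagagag
TACI 14.2 kb upstream (chr11:60925936-60926136): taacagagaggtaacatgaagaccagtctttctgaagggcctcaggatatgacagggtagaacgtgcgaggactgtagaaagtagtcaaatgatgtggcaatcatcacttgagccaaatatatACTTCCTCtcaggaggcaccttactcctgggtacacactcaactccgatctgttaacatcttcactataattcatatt
TACI 4.2 kb upstream (chr11:60935956-60936156): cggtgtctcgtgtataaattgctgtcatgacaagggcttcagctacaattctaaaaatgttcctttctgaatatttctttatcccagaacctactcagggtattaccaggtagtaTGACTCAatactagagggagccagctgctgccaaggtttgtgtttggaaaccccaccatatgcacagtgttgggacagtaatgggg
TACI intron with IRF4 (chr11:60957236-60957436): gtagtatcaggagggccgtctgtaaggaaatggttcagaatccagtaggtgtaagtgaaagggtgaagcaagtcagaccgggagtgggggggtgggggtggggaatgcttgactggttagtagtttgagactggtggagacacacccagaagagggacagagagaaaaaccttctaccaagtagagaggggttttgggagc

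The windows of the other genes are BAFF receptor regions beyond the end of the gene, in its intron and upstream of its start, and a BCMA region. The BCMA window is named after its centre, which lies in an intron. It also takes in coding exon sequence, to which position 11315407 belongs.
BAFF receptor gene, beyond the end (chr15:82049379-82049579): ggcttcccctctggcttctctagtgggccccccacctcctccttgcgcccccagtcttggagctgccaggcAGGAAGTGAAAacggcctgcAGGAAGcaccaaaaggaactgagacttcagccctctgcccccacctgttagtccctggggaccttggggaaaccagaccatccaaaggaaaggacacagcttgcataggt
BAFF receptor gene, intron (chr15:82053790-82053990): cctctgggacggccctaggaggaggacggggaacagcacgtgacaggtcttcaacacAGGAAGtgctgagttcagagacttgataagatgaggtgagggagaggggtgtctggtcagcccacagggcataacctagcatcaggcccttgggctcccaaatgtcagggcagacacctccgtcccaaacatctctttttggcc
BAFF receptor gene, 5.34 kb upstream (chr15:82060030-82060230): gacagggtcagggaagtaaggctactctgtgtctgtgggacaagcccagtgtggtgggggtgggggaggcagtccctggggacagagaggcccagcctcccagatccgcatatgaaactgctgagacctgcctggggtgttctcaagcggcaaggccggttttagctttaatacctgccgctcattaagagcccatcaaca
BCMA intron (chr16:11315342-11315542): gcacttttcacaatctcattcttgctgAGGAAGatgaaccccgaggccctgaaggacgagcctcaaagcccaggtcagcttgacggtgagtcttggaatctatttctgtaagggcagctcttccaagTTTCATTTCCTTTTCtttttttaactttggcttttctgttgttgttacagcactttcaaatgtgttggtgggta

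The 3 genes differed in what was found near them. TACI had 14 regions, 8 of them with IRF4 and 9 with PU.1. The BAFF receptor gene had 7 regions, 4 with IRF4 and 5 with PU.1. BCMA had 3 regions, all with PU.1, and none of the 6 IRF4 libraries had a peak within 20 kb of it. Of the 24 regions, 5 held both factors in at least 1 library each, 3 at TACI and 2 at the BAFF receptor gene. The windows differ in length (62.6 kb, 42.6 kb and 46.3 kb for TACI, the BAFF receptor gene and BCMA), and 9 of the 24 regions were called in a single library of the 10. Regions were joined by peak position, so the peaks of neighbouring regions can overlap, and these counts depend on that rule. At TACI, for example, the region at 60930163 to 60930344 lies inside the one at 60929407 to 60930472.

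**Figure D1:**
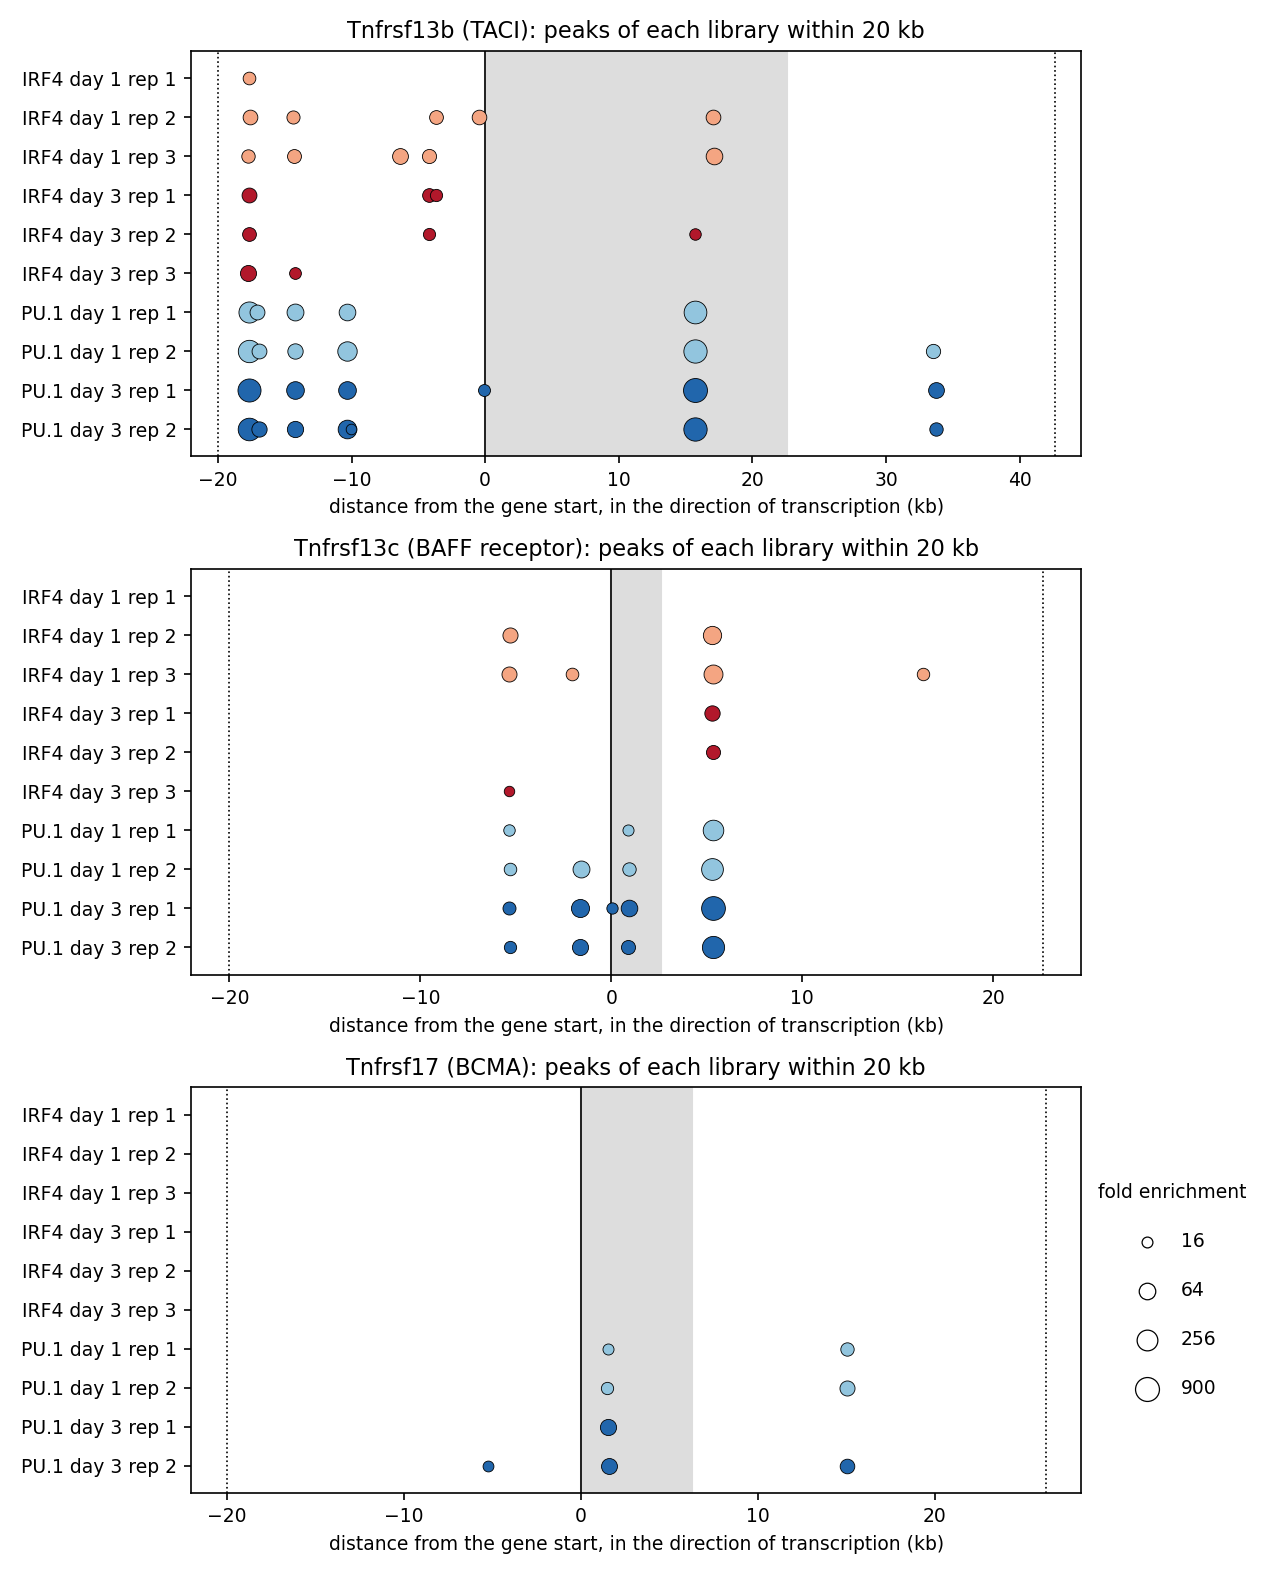
Peaks of each library within 20 kb of Tnfrsf13b, Tnfrsf13c and Tnfrsf17, by distance of the peak position from the gene start in kb, in the direction of transcription. Rows are the 10 libraries, grey is the gene, dotted lines bound the window, and the area of a circle rises with the log of the authors' fold enrichment. The IRF4 rows of Tnfrsf17 are empty, and the circles 17.7 kb upstream of Tnfrsf13b stand in all 10 rows.

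In the group lists, IRF4 was near 2 of the 3 genes on each day, TACI and the BAFF receptor gene. By the same rule 10.0% of all genes had IRF4 on day 1 and 8.47% on day 3. PU.1 was near all 3 genes on both days, against 52.3% of all genes on day 1 and 54.4% on day 3. TACI had 3 IRF4 peaks in the day 1 group list, a number that 0.495% of genes reached. It also had a region called in all 6 IRF4 and all 4 PU.1 libraries, which 1.01% of genes had. BCMA had a region called in all 4 PU.1 libraries and no peak in any IRF4 library, which was the case for 11.8% of genes. In at least 1 library, 44.5% of genes had an IRF4 peak on day 1 and 24.4% on day 3. Lacking IRF4 on a given day was thus the more common case. Being near a gene is a rule of distance: the TACI window reaches into Usp22 and the BCMA window into Snx29.

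At TACI (ENSMUSG00000010142.6, chromosome 11, 60940257 to 60962874, plus strand), the region shared by every library was intergenic, 17.7 kb upstream of the gene start, with peaks between 60922231 and 60922961. Its IRF4 enrichment, the authors' maximum fold over input for a peak, was 23.6, 38.7 and 27.8 in day 1 replicates 1 to 3. On day 3 it was 40.5, 30.7 and 56.1. The values of the days overlapped. The PU.1 enrichments were 293 and 479 on day 1 and 632 and 524 on day 3, with both day 3 values above those of day 1. Enrichments from separately called lists are not on a common scale, and no test was made between them. The region ranked among the top 0.947% to 2.63% of the PU.1 lists, but between the top 4.92% and the top 74.8% of the IRF4 lists. The median IRF4 and PU.1 positions were 2 bp apart. The window held no EICE, ISRE, AP-1 or PU.1 site. It held AGGAAG on the minus strand (60922566 to 60922571), with its middle 3 bp from the centre. This short sequence is common: 55.8% of all 70542 regions held it, and 53.2% of the 7008 with both factors.

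The strongest PU.1 peaks near any of the 3 genes lay within TACI, 15.7 kb past its start, in an intron of the coding transcripts that holds an exon of a non-coding one. The enrichments were 552 and 687 on day 1 and 921 and 697 on day 3. These peaks stood within the top 0.546% of every PU.1 list. IRF4 was called there in 1 of 6 libraries, day 3 replicate 2, with an enrichment of 18.4. The lists of IRF4 day 1 end at 20.9 to 21.9, above 18.4, and those of day 3 at 15 to 16.9, below it. Day 3 replicates 1 and 3 had no IRF4 peak there either. Enrichments of separate lists are not on a common scale, and whether the list ends account for the missing day 1 calls was not tested.

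A separate intronic region of TACI carried IRF4 without PU.1. It lay 17.1 kb past the gene start (60957028 to 60957530), 5.54 kb before the gene end. IRF4 was called with enrichments of 38.7 and 66.3 in day 1 replicates 2 and 3, and in no library of day 3 or of PU.1. Day 1 replicate 1, with 825 peaks against 9326 and 8929 in replicates 2 and 3, lacked it as well. Its window held none of the searched sequences.

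Between 6.38 kb and 0.498 kb upstream of TACI lay 4 more regions with IRF4 and no PU.1 peak in any library. The region 4.2 kb upstream was called in day 1 replicate 3 (enrichment 33.6) and day 3 replicates 1 and 2 (30.4 and 21.3). The region 3.66 kb upstream was called in day 1 replicate 2 (30.5) and day 3 replicate 1 (21.5). The 2 others were called in 1 day 1 library each, with enrichments of 52.2 and 37.8. None of these upstream regions was called in all libraries of a day. Together with the intronic one, 5 TACI regions had IRF4 without PU.1, and 3 of the 5 held the AP-1 site. The regions 4.2 kb and 3.66 kb upstream, which both held it, are not independent. The day 1 replicate 3 peak of the former (60935945 to 60936914) spans the latter (60936491 to 60936881). Of the 13022 regions of the genome with IRF4 and no PU.1, 12.8% held this sequence. AP-1 is a dimer of Fos, Jun or BATF-type proteins and a known partner of IRF4 in lymphocytes; a sequence match does not show that it was bound.

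IRF4 and PU.1 were both found 14.2 kb upstream of TACI (60925769 to 60926390). The IRF4 enrichments were 26.1 and 31.5 in day 1 replicates 2 and 3 and 19.5 in day 3 replicate 3. PU.1 was called in all 4 libraries, with enrichments of 70.9 and 45.7 on day 1 and 89.7 and 59.2 on day 3. Here the median positions of the factors stood 98 bp apart, farther than at the other 4 joint regions (2 bp to 14 bp). The PU.1 site on the minus strand (60926059 to 60926066) lay 26 bp from the centre. Of all 70542 regions 18.7% held this site, and 14.8% of the 7008 with both factors. A flanking PU.1 region 16.9 kb upstream, without IRF4, was called in 3 of 4 libraries (enrichments of 40.2 to 44.7). Another, 10.3 kb upstream and also without IRF4, was called in all 4 (67.0 to 160). Near the gene start itself, PU.1 was called in day 3 replicate 1 only, 82 bp upstream, with an enrichment of 20.2. A PU.1 peak 10.0 kb upstream was called in 1 library (15.4), and PU.1 positions 33.5 to 33.7 kb past the TACI start, in an intron of Usp22, came from 3 libraries (27.8 to 51.4).

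**Figure D2:**
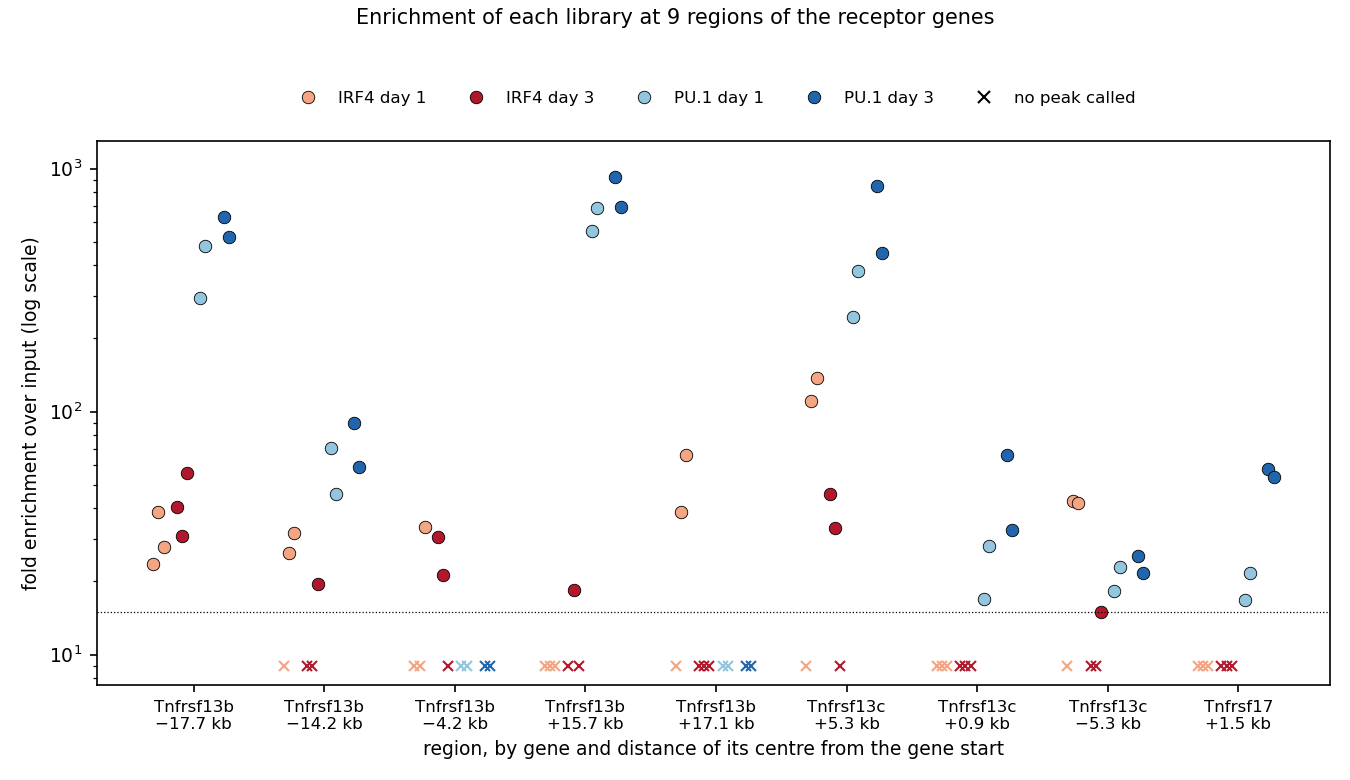
Fold enrichment over input, as deposited, on a log axis, of each library at 9 regions named by gene and distance of the centre from the gene start. Circles are single libraries coloured by factor and day, crosses below the dotted line mark libraries with no peak there, and the dotted line is the lowest value of any list, 14.9. The region 5.3 kb past the start of Tnfrsf13c shows IRF4 values of 110 and 137 in 2 day 1 libraries.

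The BAFF receptor gene (ENSMUSG00000068105.3, chromosome 15, 82052174 to 82054790, minus strand) had its leading region 2.69 kb beyond the gene end, which is 5.31 kb past its start (82049101 to 82049841, intergenic). In day 1 replicates 2 and 3 the IRF4 enrichments were 110 and 137, ranks 79 of 9326 and 32 of 8929. In day 3 replicates 1 and 2 they were 45.7 and 33.1, ranks 317 of 2784 and 292 of 1408. The region was not called in day 1 replicate 1 or in day 3 replicate 3, although the latter held 5595 peaks, the most of any day 3 IRF4 library. PU.1 was called in all 4 libraries, at 244 and 377 on day 1 and 849 and 451 on day 3, again with both day 3 values above those of day 1. The EICE GGAAGTGAAA (82049451 to 82049460, plus strand) lay 24 bp from the centre, and the median positions of the factors were 11 bp apart. An EICE was present in 23.5% of 7008 regions of the genome with both factors, in 8.69% of 50512 with PU.1 and no IRF4, and in 2.41% of those with IRF4 and no PU.1. It is the element at which PU.1 and IRF4 bind side by side.

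The other joint region of the BAFF receptor gene lay 5.34 kb upstream of its start (82059921 to 82060453, intergenic). The IRF4 enrichments were 42.9 and 42.1 in day 1 replicates 2 and 3. Day 3 replicate 3 had 15, at the very end of its list (rank 5539 of 5595), and day 1 replicate 1 and day 3 replicates 1 and 2 had no peak. PU.1 was called in all 4 libraries, weakly, at 18.2 and 22.9 on day 1 and 25.5 and 21.7 on day 3. At this place alone among the joint regions, IRF4 values of day 1 were above the PU.1 values, which come from other antibodies and lists and are set side by side only. None of the searched sequences was in its window.

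PU.1 without IRF4 was found in an intron of the BAFF receptor gene, 0.900 kb past the start (82053721 to 82054037). The enrichments were 16.9 and 27.9 on day 1 and 66.0 and 32.7 on day 3, and the days did not overlap. A PU.1 region 1.61 kb upstream was called in 3 of 4 libraries (57.1 to 103), all but day 1 replicate 1. In the untranslated part of the gene, 44 bp past the start, PU.1 was called in day 3 replicate 1 alone (17.6). Single peaks of IRF4 in day 1 replicate 3 stood 2.08 kb upstream (23.4) and 13.7 kb beyond the gene end (22.5), both close to the end of that list at 21.9.

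BCMA (ENSMUSG00000022496.5, chromosome 16, 11313905 to 11320167, plus strand) had a PU.1 region centred in an intron, 1.54 kb past its start (11315236 to 11315645), called in all 4 libraries. The region also covers coding exon sequence, in which the peak position of day 1 replicate 2 fell. The enrichments were 16.7 and 21.7 on day 1 and 58.1 and 53.8 on day 3, so the day 3 values stood above the day 1 values. The window held an EICE on the minus strand (11315469 to 11315478, GGAAATGAAA), 31 bp from the centre, and an ISRE that overlaps it (11315474 to 11315483, GAAAAGGAAA). No IRF4 library had a peak at this EICE. Of the 50512 regions of the genome with PU.1 and no IRF4, 8.69% held an EICE and 4.63% an ISRE. A PU.1 region in an intron of Snx29, 8.75 kb beyond the end of BCMA, was called in 3 of 4 libraries (27.6 to 42.3), and a PU.1 peak 5.21 kb upstream in day 3 replicate 2 (16.1). The IRF4 peak nearest to BCMA lay at the same place in all 6 libraries, in an intron of Snx29, 65.8 kb to 65.9 kb from BCMA, with enrichments of 88.8 to 210, and is not counted for BCMA here.

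Of the 8 regions near the 3 genes called in all 4 PU.1 libraries, 5 had both day 3 enrichments above both day 1 enrichments, and 0 had the reverse. This share has to be read against all 14200 such PU.1 regions, of which 30.4% had both day 3 values higher and 5.13% both day 1 values higher. The PU.1 lists as a whole thus leaned to higher day 3 values. No test was made at single regions, since the values come from separately called lists; with 2 libraries against 2 an exact permutation test cannot give a p below 0.33.

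Among promoters of RefSeq (GRCm38.p6, 250 bases before to 50 after a gene start), that of Tnfrsf17 held an ISRE, as did 3.44% of 32851 promoters, and that of Tnfrsf13b held AGGAAG, as did 35.4%. None of the 3 promoters read held an EICE, an AP-1 site, an AICE or the PU.1 site. Where a receptor gene had several listed promoters, only the last was read, while the shares count all promoters. The searched letters were also missing, apart from AGGAAG, in 17 of the 24 region windows, which says only that these letters are not in these windows.

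Over the 3 genes together, the IRF4 libraries of day 1 had 1, 7 and 9 peaks and those of day 3 had 4, 4 and 3. The means were 5.67 ± 4.16 (SD, n = 3) and 3.67 ± 0.577 (SD, n = 3), a difference of -2 peaks (two-sided exact permutation test over libraries, p = 0.5; the smallest p this design allows is 0.1). The day 1 libraries spanned the day 3 libraries on both sides. Without day 1 replicate 1 the difference was -4.33 and without day 1 replicate 3 it was -0.333. With the number of top peaks that the shortest IRF4 list holds, 825, it turned to 0.33.

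PU.1 libraries of day 1 had 10 and 12 peaks near the 3 genes, and those of day 3 had 12 and 14. Their averages, 11 ± 1.41 and 13.0 ± 1.41 (SD, n = 2 libraries), differed by 2.00 peaks (two-sided exact permutation test, p = 0.667; the smallest p for 2 against 2 is 0.33). Adjusted over these 2 tests by Benjamini-Hochberg, both exact permutation p-values were 0.667. The PU.1 difference was 1.00 without day 1 replicate 1 or without day 3 replicate 2, and 0.500 with lists of equal length.

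**Figure D3:**
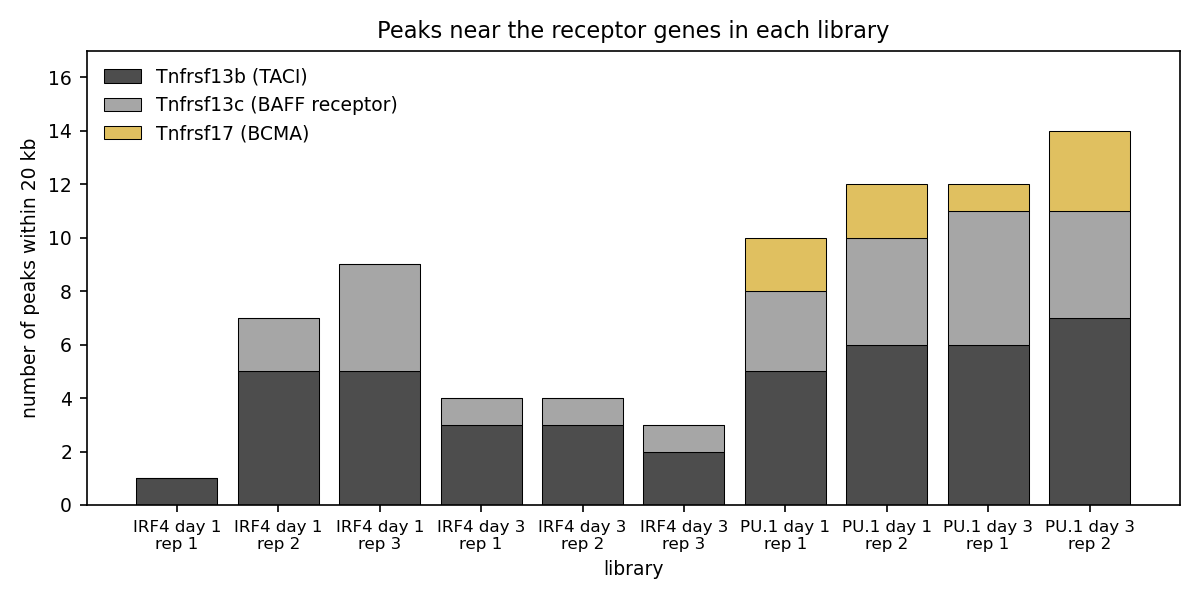
Number of peaks within 20 kb of the 3 genes in each of the 10 libraries, with the bar divided by gene. IRF4 libraries held 1 to 9 peaks and none at Tnfrsf17, and PU.1 libraries held 10 to 14 peaks with 1 to 3 at Tnfrsf17.

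The rest of the BAFF and APRIL pathway was covered by a list of 22 genes. It holds the 2 cytokines, the APRIL-binding proteoglycan Sdc1, the TACI-binding protein Caml, TRAF adaptors, ubiquitin ligases, kinases, NF-kB subunits and survival genes. IRF4 was near 4 of the 22 in the day 1 group list and near 7 in the day 3 list, where 10.0% and 8.47% of all genes had it. PU.1 was near 17 and 19 of them, against 52.3% and 54.4% of all genes. The median gene of the list had 0 IRF4 peaks on each day, as did the median of all genes, and 2.5 and 3.0 PU.1 peaks against 1 for all genes.

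The ligand genes Tnfsf13b (BAFF) and Tnfsf13 (APRIL) had no IRF4 peak in a group list. Single libraries had IRF4 near Tnfsf13b in 1 of day 1 and 0 of day 3, and near Tnfsf13 in 1 of each day. Tnfsf13b had 0 and 1 PU.1 peaks on day 1 and day 3, and Tnfsf13 had 2 and 3. Among the adaptors, Traf1 had 4 and 2 IRF4 peaks; the leading day 3 peak, 15.6 kb upstream, was called in 2 day 1 and 3 day 3 IRF4 libraries and in all 4 PU.1 libraries. Map3k14, the kinase NIK that starts the alternative NF-kB pathway, had 3 and 0 IRF4 peaks in the group lists of day 1 and day 3. In single libraries, IRF4 was near Map3k14 in 3 of day 1 and 1 of day 3. Its leading peak, 4.83 kb past the start (enrichment 48.0), was called in 2 day 1 libraries, no day 3 library and no PU.1 library. Chuk, the kinase IKK-alpha of the same pathway, had 0 and 2 IRF4 peaks in the group lists. In single libraries, IRF4 was near Chuk in 2 of day 1 and 3 of day 3, and its leading day 3 peak was called in 1 day 1 library.

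Traf5 and Birc3, an adaptor and a ubiquitin ligase of TNF receptor complexes, each had 1 IRF4 peak in the day 3 group list and 0 in that of day 1. These peaks were called in 2 day 3 libraries, with an enrichment of 20.6 and 17.3. Both values lie below the end of the day 1 lists. Elsewhere within 20 kb, IRF4 was called near Traf5 in 1 day 1 library and near Birc3 in 0. Nfkb1 had 3 and 2 IRF4 peaks, while Nfkb2, Rela and Relb had none in either group list. Mcl1, a survival gene needed by plasma cells, had 1 IRF4 peak on each day about 7.9 kb upstream (31.1 and 28.7), in 3 day 1 and 2 day 3 libraries. Bcl2l1, another survival gene, had 1 on day 3 (20), called in 1 day 1 and 2 day 3 libraries.

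Other receptors of the TNF superfamily were covered by a list of 20 genes. IRF4 was near 3 of them in the day 1 group list, a share not far from the 10.0% of all genes, and near 0 in the day 3 list, against 8.47%. In at least 1 library, 11 had an IRF4 peak on day 1 and 9 on day 3, where 44.5% and 24.4% of all genes had one. The 3 were Tnfrsf1a, Tnfrsf1b and Tnfrsf8, which encode both TNF receptors and CD30, with 1 peak each (25.5, 34.3 and 35.5). That of Tnfrsf1b lay 79 bp upstream of the gene start, in 2 day 1 libraries and no PU.1 library. Cd40, whose ligand was in the culture, had no IRF4 peak in a group list and 3 and 2 PU.1 peaks. IRF4 was near Cd40 in 1 library of each day. No test was made between the lists.

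**Figure D4:**
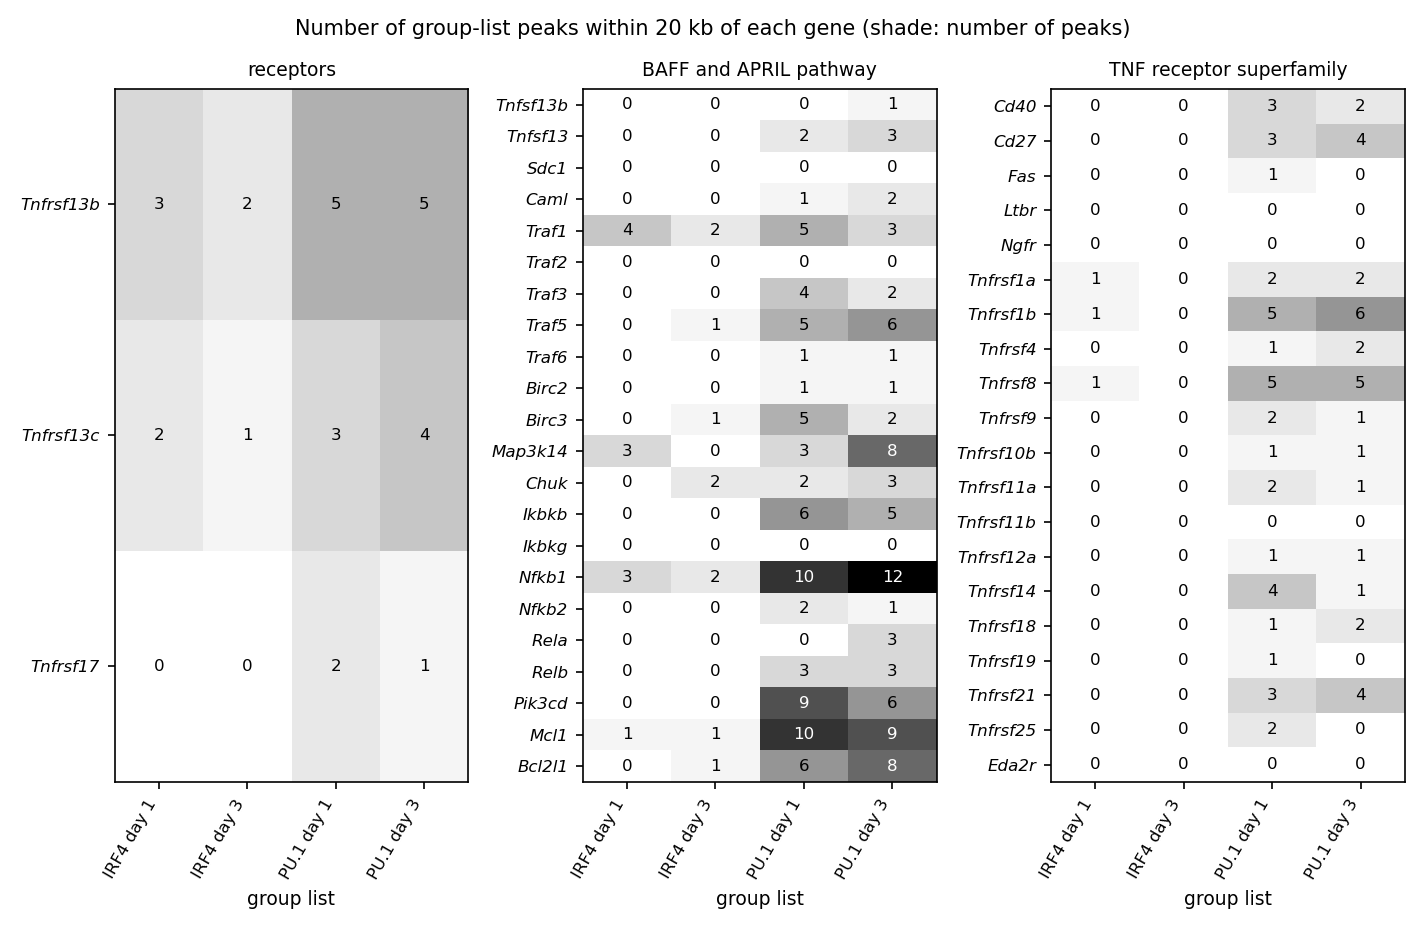
Number of group-list peaks within 20 kb of each gene, printed in the cell and shown as shade, for the 3 receptors, 22 pathway genes and 20 genes of the TNF receptor superfamily. Columns are the group lists of IRF4 and PU.1 on day 1 and day 3; the day 3 IRF4 column of the superfamily holds 0 throughout.

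The genes most like each receptor were sought over the 10 libraries, by the percentile in each list of the strongest peak within 20 kb (100 for the top of the list, 0 without a peak) and the Euclidean distance between these profiles. St8sia4 (distance 11.4) and Gm4968 (19.3) were nearest to TACI. For the BAFF receptor gene they were Cdyl (18.2) and Rac2 (18.6), which had no IRF4 peak in day 1 replicate 1 or day 3 replicate 3; the BAFF receptor gene lacked one in the former and had a peak near the end of the list in the latter. Zdhhc17 (4.07) and Denr (5.15) were nearest to BCMA, with no IRF4 peak in any library.

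Only binding was measured, so neither the level of the receptors nor the cell type could be read from RNA. IRF4 was near 4 of 5 B cell markers on day 1 and 1 on day 3, near 0 of 5 T cell markers on both days, and near 2 and 1 of 5 myeloid markers, against 10.0% and 8.47% of all genes. PU.1 was near all 5 B cell markers, 4 of 5 T cell markers and 4 and 3 of 5 myeloid markers, against 52.3% and 54.4% of all genes. Library lists held 825 to 9326 IRF4 peaks and 27321 to 38052 PU.1 peaks, and IRF4 day 1 replicate 1 stood apart by its short list.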

How the data were processed

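Reads were aligned to mm9 (also the build in the submitters' processing notes) and enrichment against input was calculated with QuEST, per the series' design text. The aligner, the QuEST version and its thresholds were not given in the sources used here. For a deposited peak there is a maximum enrichment, a fold (linear ratio) over input that the authors calculated and that was used only to describe or rank peaks within a list. The lists hold no counts, so the depth behind a peak is unknown and no interval is given. Each line of a group list was a copy of a line of one of its libraries; 7 and 5 repeated lines (PU.1 day 1 and day 3) were counted once.

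Replicates are numbered as in the sample descriptions; the titles number the day 3 IRF4 libraries and the PU.1 libraries otherwise, and 2 titles carry a pair of numbers. Genes came from GENCODE M1, without the mitochondrial genome and the Y chromosome; all 57 genes of the lists were matched, 1 by an older symbol (Camlg). Positions are printed as deposited; motif positions count from 1. The text accounts for every region, in full where it was called in all libraries of a factor and day or for both factors, names list genes with IRF4 in a group list, and gives the 2 most similar genes that share no peak with a receptor. Tnfsf13b, Tnfsf13, Nfkb2, Rela, Relb and Cd40 were named after their values were seen, and the order of PU.1 values by day and the sequence AGGAAG were likewise chosen after seeing the data. Genes, lists and members were chosen with earlier results of these data known. Counts per library were compared with exact permutation tests, and the steps were tested on simulated data (200 of 200 placed peaks recovered). Python 3.11.15, numpy 2.4.6 and matplotlib 3.10.9 were used. Alternatives were other distances, merging distances, shorter lists, a replicate block and leaving out each library. The input library was not analysed here, and the sequence of 1 region is not reported here.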

Additional observations from a re-analysis of the deposited data

How the results depend on the processing

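The number of IRF4 peaks near the 3 genes, day 3 minus day 1, was -2; it ranged from -4.33 to -0.333 when 1 library was left out and turned to 0.33 with equal numbers of top peaks. The PU.1 difference of 2.00 ranged from 1.00 to 3.00 when 1 library was left out and was 0.500 with equal numbers of top peaks. Joint regions numbered 5, but 3 with the stronger 50% of each list and 2 with 5 kb around genes, and 4 to 5 when 1 library was left out. With 50 kb around genes, the pathway list had IRF4 near 8 and 11 genes on day 1 and day 3 and the superfamily list near 6 on day 1; with the stronger 50% of the list, the pathway list had 4 on day 3. Of 71 alternatives run, 64 kept direction, side of the threshold or count within 1.5 times; for the others the cause was not tested.

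With the replicate block, same-numbered libraries differed by -2 IRF4 peaks (exact sign-flip test, p = 0.75) and 2.00 PU.1 peaks (exact sign-flip test, p = 0.5). The PU.1 value is the smallest p that this test allows with 2 pairs. Deviations of same-numbered IRF4 libraries over 20058 regions correlated at -0.27, 0.08 and -0.10. Day 1 replicate 1 correlated best with day 3 replicate 3 (0.44). Deviations within a day depend on each other, and day 1 replicates 2 and 3 had the same correlations (0.06, 0.08 and -0.10). These correlations therefore cannot decide whether the numbers pair the libraries. By the numbers in the titles, day 1 replicates 2 and 3 would go with day 3 replicates 1 and 2, whose deviations correlated at 0.06 and 0.08. A place without a peak may lie just under a list's threshold, and the IRF4 day 1 lists end higher than those of day 3.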
